A study of Sus scrofa with 64 samples.

Results

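Large White pigs were compared with Iberian pigs in skeletal muscle, with messenger RNA measured in the diaphragm and in *Biceps femoris*, a hind limb muscle. These are 8 of the 64 arrays of the study, 4 per breed, chosen by the tissue and breed in the sample labels, which spell the first breed "Large Wite". Each breed was represented by 1 male and 1 female, and both muscles came from the same 4 animals. At an age of 87 days the Large White pigs weighed 38.8 kg (male) and 36.2 kg (female), while at 89 days the weights of the Iberian pigs were 25.4 kg (male) and 32.8 kg (female). They were not treated, were raised together on the same feed for 2 months, and came from 2 breeding companies. Origin and breed therefore cannot be told apart. The 14 other tissues of these animals served for comparison.

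Large White is a white, fast growing breed selected for lean meat, whereas Iberian is a dark, slow growing breed whose muscle is rich in fat. The diaphragm contracts throughout life and depends mostly on oxidative metabolism, and *Biceps femoris* relies more on glycolysis. Muscle fibres express slow or fast forms of the myosins and troponins, and between them lie fat cells, blood vessels, connective tissue and resident immune cells. In a piece of tissue, fewer cells of a type and less RNA per cell cannot be told apart.

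Levels are log2 values after RMA, the normalization that the authors applied to all 64 arrays, so that 1 unit is a doubling of the signal. A probe here is an Affymetrix probe set, and 23935 probes were tested after 188 controls were left out. Differences are Large White minus Iberian from a limma model with muscle, sex and breed, given with their standard error (SE), and p-values were adjusted across all tested probes (Benjamini-Hochberg), with 0.05 as the threshold to pass. Pairs of values are given with the male first. There is no sequencing depth on an array, and the few arrays, and above all the 2 animals per breed, limit the precision: the exact two-sided permutation test over animals cannot give a p below 0.333.

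The arrays carried the labelled tissue and sex, and 1 of them stood apart. Creatine kinase (CKM), the muscle enzyme that buffers ATP, lay between 13.47 and 13.59 on all 8 arrays, and the fast troponin TNNC2 between 13.19 and 13.67. The Y-linked gene EIF1AY lay between 6.24 and 8.13 in males and between 2.60 and 2.89 in females. The distance between arrays, 1 minus the squared correlation over probes, was 0.170 to 0.214 between the *Biceps femoris* of the Iberian female and the 3 other *Biceps femoris* arrays, whereas the latter differed from each other by 0.0362 to 0.0466. The 4 diaphragm arrays were 0.0323 to 0.0404 apart. On the deviant array 2245 probes were over 1 unit below the other 3, and 354 were over 1 unit above them. For the 7 other arrays these counts were 16 to 79 and 25 to 50. The 3′ minus 5′ signal of the actin controls, a measure of RNA integrity, was 1.94 on the deviant array and 1.76 to 2.19 on the others. Values without this array are given beside those results where it changed a call or a direction or moved the value markedly.

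Few single probes separated the breeds beyond the spread between arrays. Over all 8 arrays 2 probes passed with Large White higher (0.00836% of those tested) and 0 with Iberian higher (0%). At an unadjusted p under 0.05, 739 probes were higher in Large White (3.09%) and 918 in Iberian (3.84%). Probes whose 2 Large White arrays both lay above both Iberian arrays in each muscle numbered 925 (3.86%), and 1364 (5.7%) had the reverse order. A difference over 1 log2 unit was seen for 243 probes with Large White higher and for 71 with Iberian higher. No probe passed within the diaphragm, within *Biceps femoris*, or for the difference between the muscles in their breed difference. At an unadjusted p under 0.05 these 3 tests gave 707, 2075 and 774 probes. Without the deviant array 23 probes passed with Large White higher (0.0961%) and 19 with Iberian higher (0.0794%), both of the calls over 8 arrays among them.

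One of these calls was PTGES3, annotated as cytosolic prostaglandin E synthase, which also acts as a co-chaperone of HSP90. It was at 6.35 and 6.76 in the diaphragm of the Large White pigs and at 3.85 and 3.98 in that of the Iberian pigs. In *Biceps femoris* the levels were 6.26 and 6.81 against 2.83 and 4.22. The lowest Large White array was thus over 2 units above the highest Iberian array, and the difference was 2.82 (SE 0.23, adjusted p = 0.0366), a 7.08-fold higher signal. The call treats both muscles of an animal as separate arrays. On the means of the 4 animals, in a limma fit without sex, its adjusted p was 0.381. Nor did it pass over 8 arrays with no sex term or after a new quantile normalization. The same probe was higher in Large White in all 14 other tissues of these animals, by 2.01 to 4.35. Another probe of PTGES3, at a mean level of 7.78, differed by 0.42. The study's tables give the first probe the name of a different prostaglandin gene, so the gene behind it is uncertain.

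The other call was a probe without a symbol in the platform annotation, which the study lists as IGHM, the constant chain of immunoglobulin M. The study lists another IGHM probe as higher in Iberian across tissues, so its IGHM probes disagree in direction. The probe of this call was named here after its values were seen. Its levels were 8.89 and 8.62 in the Large White diaphragm and 5.89 and 5.73 in the Iberian one, and 8.76 and 8.76 against 4.92 and 5.58 in *Biceps femoris*. The difference was 3.23 (SE 0.21, adjusted p = 0.0182) and was 3.14 on average in the other tissues. This call too treats both muscles of an animal as separate arrays. On the means of the 4 animals, in a limma fit without sex, its adjusted p was 0.108. Over the 17 probes of the lymphocyte list, which does not hold this probe, the median difference was -0.34. At an unadjusted p under 0.05, 0 of them were higher in Large White and 3 lower, beside 3.09% and 3.84% of all probes.

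To describe the comparison further, the probes with a symbol, the smallest p in each direction and no overlap between breeds in either muscle were taken, 12 genes higher in each breed. All but PTGES3 missed the threshold over 8 arrays. As the genes were chosen for small p and separate groups, their values below are a description.

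**Figure D1:**
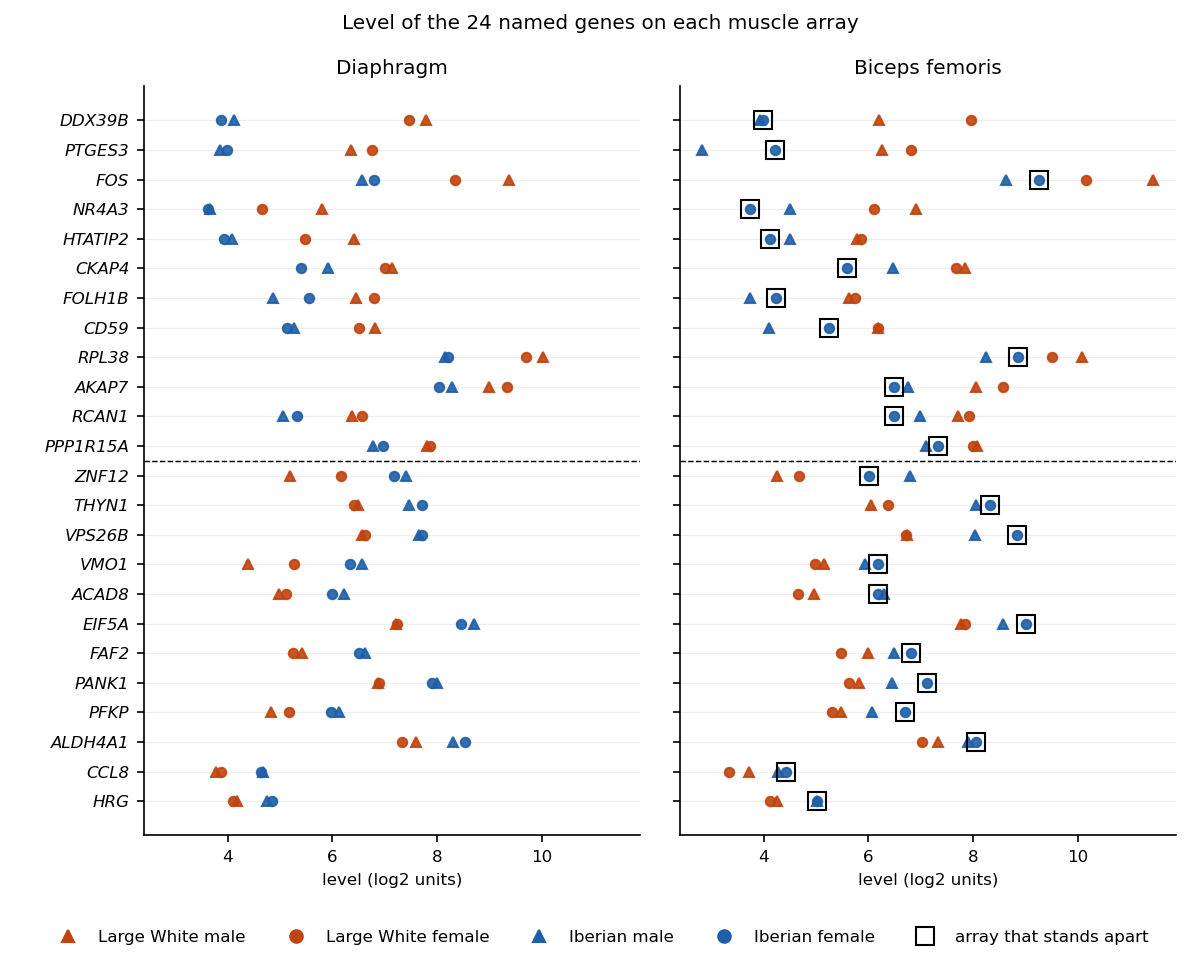
Level in log2 units (x axis) of the 24 named genes on the 4 diaphragm arrays and the 4 *Biceps femoris* arrays, with breed by colour, sex by symbol and the deviant array in a square. Genes above the dashed line were higher in Large White and genes below it in Iberian, and in every row the colours do not overlap within a muscle, which is how the genes were chosen.

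Higher in Large White were 3 more genes whose difference had the same sign in all 14 other tissues. DDX39B, an RNA helicase of messenger RNA export, was at 7.79 and 7.46 in the Large White diaphragm and at 4.13 and 3.87 in the Iberian one. In *Biceps femoris* it was at 6.21 and 7.96 against 3.94 and 3.99. The difference of 3.38 (SE 0.35, adjusted p = 0.0751) was the largest of the 24 genes, and in the other tissues it ran from 2.70 to 4.03. A second DDX39B probe, at a mean level of 9.35, differed by -0.35, and the study lists the first one under a proton pump subunit. CKAP4, a membrane protein of the endoplasmic reticulum, was at 7.14 and 7.0 against 5.92 and 5.40 in the diaphragm and at 7.84 and 7.67 against 6.47 and 5.60 in *Biceps femoris*, a difference of 1.56 (SE 0.18, adjusted p = 0.108). RPL38, a protein of the large ribosomal subunit, was at 10.02 and 9.70 against 8.14 and 8.20 in the diaphragm and at 10.08 and 9.52 against 8.25 and 8.87 in *Biceps femoris*. Its difference was 1.46 (SE 0.22, adjusted p = 0.239), whereas its brighter second probe, at a mean of 11.84, differed by -0.17. Without the deviant array the first probe given for each of these 3 genes passed, with adjusted p of 0.0156, 0.0156 and 0.00975.

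FOLH1B and HTATIP2 were also higher in Large White in both muscles. FOLH1B, annotated as a relative of folate hydrolase, was at 6.44 and 6.79 against 4.86 and 5.55 in the diaphragm and at 5.63 and 5.75 against 3.73 and 4.24 in *Biceps femoris*, with an adjusted p of 0.0751. HTATIP2, an oxidoreductase described as a tumour suppressor, was at 6.41 and 5.47 against 4.08 and 3.93 and at 5.79 and 5.85 against 4.50 and 4.12, with an adjusted p of 0.108. Large White was higher in 13 and 12 of the 14 other tissues, respectively.

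FOS, NR4A3, RCAN1 and PPP1R15A, members of the list of immediate early and stress genes, were among the genes chosen as higher in Large White, and none of them passed over 8 arrays. Immediate early genes are switched on within minutes by contraction, injury, hormones or stress. FOS, a subunit of the AP-1 transcription factor, was at 9.37 and 8.35 in the Large White diaphragm and at 6.57 and 6.80 in the Iberian one, and at 11.45 and 10.16 against 8.63 and 9.27 in *Biceps femoris*. The difference was 2.01 (SE 0.33, adjusted p = 0.271), 4.04-fold, and 2.30 without the deviant array (adjusted p = 0.0205). NR4A3, an orphan nuclear receptor induced by exercise, was at 5.80 and 4.65 against 3.66 and 3.62 in the diaphragm and at 6.90 and 6.11 against 4.51 and 3.75 in *Biceps femoris*. Its difference was 1.98 (SE 0.25, adjusted p = 0.108), with an adjusted p of 0.0242 without the deviant array. A dimmer NR4A3 probe differed by 0.39.

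ATF3, a stress-induced transcription factor, lies outside the rule for named genes and is given after its values were seen. It was at 7.36 and 5.54 against 4.68 and 4.76 in the diaphragm and at 9.47 and 9.08 against 5.28 and 5.87 in *Biceps femoris*, a difference of 2.71 (SE 0.51, adjusted p = 0.297). In all 4 animals, Iberian included, FOS, NR4A3 and ATF3 were higher in *Biceps femoris* than in the diaphragm, and the Large White male was above the Large White female in both muscles. RCAN1, an inhibitor of calcineurin, differed by 1.18 (SE 0.18), and PPP1R15A, which reverses the stress block on translation, by 0.90 (SE 0.14). RCAN1 was at 6.37 and 6.56 against 5.05 and 5.33 in the diaphragm and at 7.72 and 7.93 against 6.99 and 6.49 in *Biceps femoris*. The other RCAN1 probe, the brighter at a mean of 9.66, also differed by 0.75 with the breeds apart in both muscles.

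Over the whole list of immediate early and stress genes, 35 probes of 28 genes, 0 passed. At an unadjusted p under 0.05, 8 were higher in Large White and 2 in Iberian, beside 3.09% and 3.84% of all probes. Without the deviant array the counts were 17 and 2, beside 1290 and 1173 of all 23935 probes. The median difference was 0.46 in the diaphragm, 0.10 in *Biceps femoris* and 0.52 there without the deviant array, beside 0.00, -0.08 and -0.01 over all probes. Mean levels of the list were 7.24 and 7.07 in the Large White diaphragm against 6.48 and 6.66 in the Iberian one. In *Biceps femoris* they were 7.59 and 7.22 against 6.87 and 7.45, where the last value is the deviant array and the breeds overlap. Some members, chosen after their values were seen, show this overlap: EGR1, a zinc finger factor, was at 8.45 and 7.82 against 6.16 and 6.28 in the diaphragm but at 9.81 and 7.46 against 7.42 and 8.28 in *Biceps femoris*. DUSP1, a phosphatase that turns off MAP kinases, followed the same order with a difference of 0.55. JUN, the partner of FOS, differed by 0.18 (SE 0.32), or 0.36 without the deviant array, with the breeds overlapping in both muscles. CEBPB, a factor of the acute response, differed by 0.07 (SE 0.25), or 0.30 without that array, with the breeds overlapping in *Biceps femoris*.

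**Figure D2:**
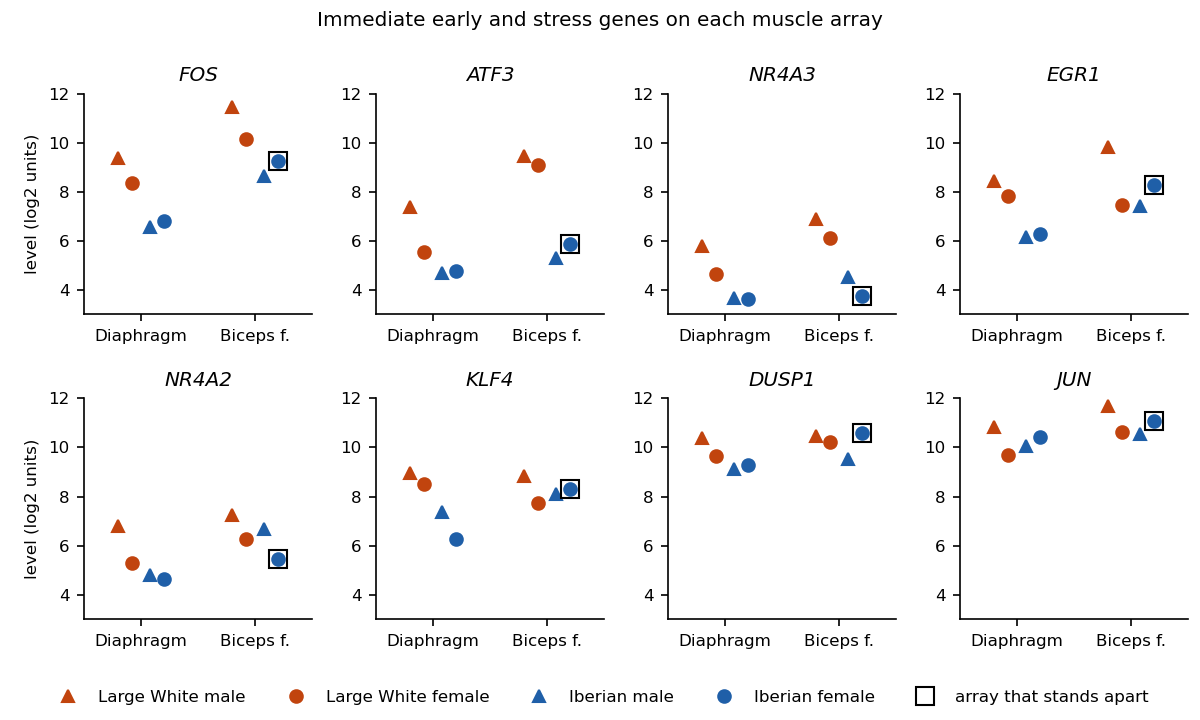
Level in log2 units (y axis) of 8 immediate early and stress genes in the diaphragm and *Biceps femoris* (x axis), 1 point per array, with breed by colour, sex by symbol and the deviant array in a square; the brightest probe of each gene is drawn. FOS, ATF3 and NR4A3 keep the breeds apart in both muscles, whereas EGR1, KLF4 and DUSP1 do so in the diaphragm and JUN in neither muscle.

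CD59 and AKAP7 complete the genes higher in Large White. CD59, the membrane inhibitor of complement attack, was at 6.81 and 6.51 against 5.26 and 5.12 in the diaphragm and at 6.18 and 6.19 against 4.11 and 5.25 in *Biceps femoris*, a difference of 1.49 (SE 0.25, adjusted p = 0.271). A brighter CD59 probe, at a mean of 9.06, differed by 0.50, also with the breeds apart in both muscles. AKAP7, an anchor of protein kinase A at ion channels, was at 8.99 and 9.34 against 8.29 and 8.04 and at 8.06 and 8.59 against 6.76 and 6.50, a difference of 1.35 (SE 0.22). Without the deviant array CD59 passed (adjusted p = 0.0156) and AKAP7 did not (adjusted p = 0.0704).

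Of the genes higher in Iberian, ACAD8, PANK1, ALDH4A1 and PFKP encode metabolic enzymes, and none of them passed over 8 arrays. ACAD8, the mitochondrial isobutyryl-CoA dehydrogenase of valine breakdown, was at 4.99 and 5.12 in the Large White diaphragm and at 6.22 and 5.99 in the Iberian one. In *Biceps femoris* it was at 4.96 and 4.66 against 6.30 and 6.18. The difference was -1.24 (SE 0.16, adjusted p = 0.115) and -1.19 without the deviant array (adjusted p = 0.0347), and a second ACAD8 probe differed by -0.99. PANK1, pantothenate kinase, which starts the synthesis of coenzyme A, was at 6.88 and 6.89 against 8.0 and 7.91 in the diaphragm and at 5.82 and 5.63 against 6.46 and 7.12 in *Biceps femoris*. Its difference was -1.06 (SE 0.18, adjusted p = 0.271), and its 2 dimmer probes differed by -0.51 and -0.19 with the breeds apart in both muscles. ALDH4A1, the mitochondrial enzyme that ends proline breakdown, differed by -0.88 (SE 0.16), and PFKP, the platelet form of the glycolytic enzyme phosphofructokinase, by -1.02 (SE 0.18). PFKP was a dim probe, at 4.84 to 5.49 in Large White and 5.98 to 6.70 in Iberian.

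The other genes higher in Iberian had varied roles. THYN1, a nuclear protein of unclear function, was at 6.50 and 6.41 against 7.46 and 7.70 in the diaphragm and at 6.04 and 6.38 against 8.07 and 8.33 in *Biceps femoris*, a difference of -1.56 (SE 0.21, adjusted p = 0.155). VPS26B, a subunit of the retromer that recycles membrane proteins, was at 6.56 and 6.62 against 7.65 and 7.71 and at 6.74 and 6.72 against 8.04 and 8.85, a difference of -1.40 (SE 0.21, adjusted p = 0.235). ZNF12, a zinc finger protein, was at 5.19 and 6.17 against 7.41 and 7.18 in the diaphragm and at 4.26 and 4.68 against 6.79 and 6.02 in *Biceps femoris*, a difference of -1.77 (SE 0.28, adjusted p = 0.271). These 3 genes were higher in Iberian in all 14 other tissues, and passed without the deviant array with adjusted p of 0.0369, 0.0242 and 0.0289. EIF5A, a translation elongation factor, differed by -1.17 (SE 0.17) and its brighter second probe, at a mean of 10.29, by -0.71. FAF2, a factor of protein removal from the endoplasmic reticulum, differed by -1.08 (SE 0.18) with 3 other probes between -0.33 and -0.16. VMO1, CCL8, a chemokine that attracts monocytes, and HRG, a plasma protein, were dim, at means of 5.60, 4.09 and 4.54, and differed by -1.31, -0.83 and -0.75. Second probes of VPS26B, VMO1 and HRG differed by only -0.25, -0.10 and -0.06, with the breeds not apart in both muscles. Those of VMO1 and HRG turned sign without the deviant array, to 0.10 and 0.06.

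**Figure D3:**
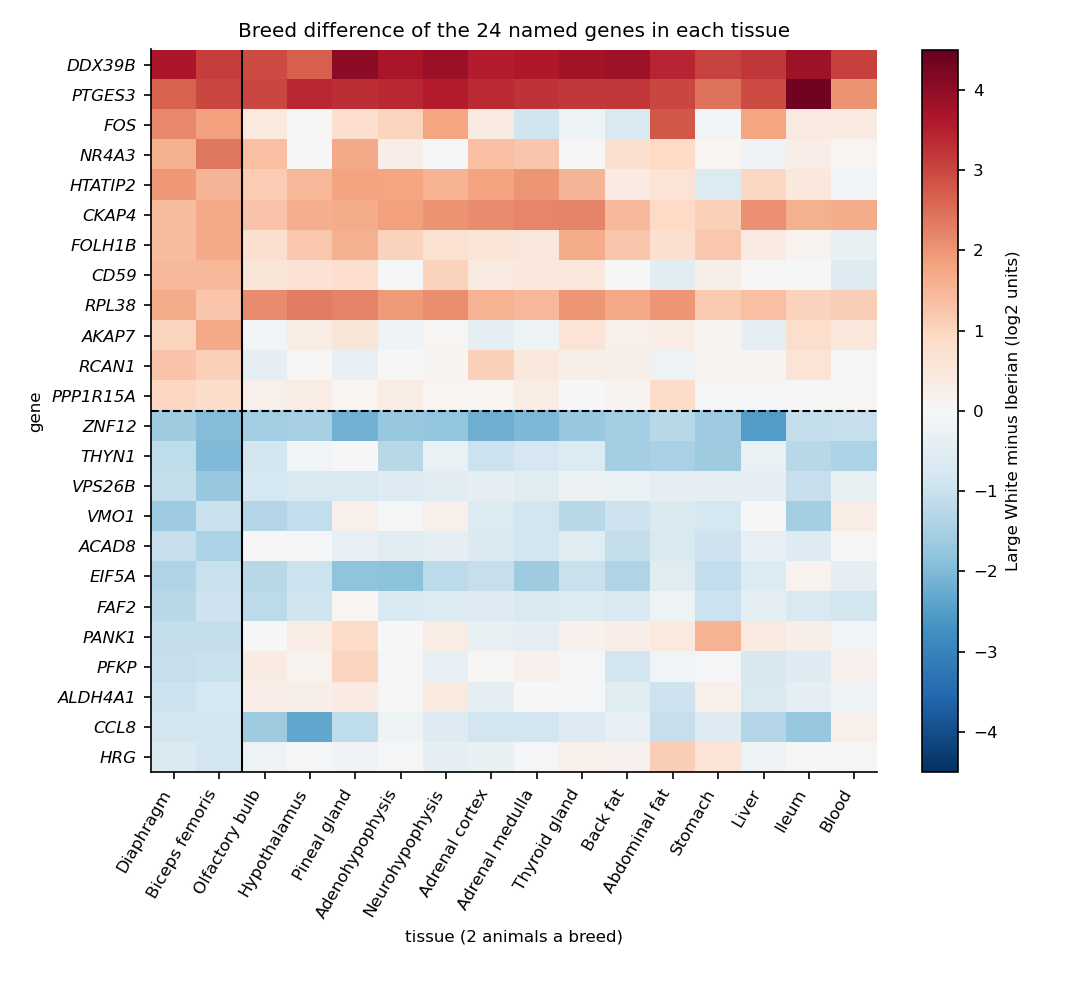
Difference Large White minus Iberian in log2 units (colour) of the 24 named genes (rows) in the 2 muscles, left of the solid line, and in the 14 other tissues (columns), each from 1 male and 1 female per breed. The rows of DDX39B, PTGES3, CKAP4 and RPL38 are red in every tissue and those of ZNF12, THYN1 and VPS26B blue or white, whereas AKAP7, RCAN1, PANK1 and HRG take both colours outside muscle.

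The contrast tested next was the breed difference of the muscles minus that of the 14 other tissues, over all 64 arrays. It also depends on whether a gene gives a signal in the other tissues. It passed for 223 probes upwards (0.932%) and 169 downwards (0.706%), and for 65 and 45 without the deviant array, of which 71 were among the first. This fit takes the 64 arrays as independent, although they come from 4 animals. Of the 24 genes 7 passed, and 5 without the deviant array: CD59 and AKAP7 upwards, and ACAD8, VPS26B and ALDH4A1 downwards. The 24 genes were chosen for small p and separate breeds on the same muscle arrays. That choice favours passing, so the 7 are a description. For PTGES3 this contrast was -0.34 (adjusted p = 0.524) and for DDX39B -0.09 (adjusted p = 0.931).

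ATF3 had the largest contrast of the genes with a symbol, 2.49 (adjusted p = 0.00138), as its breed difference in the other tissues was 0.23 on average and lay between -0.21 and 0.84. CASQ2, the cardiac and slow muscle form of calsequestrin that stores calcium in the sarcoplasmic reticulum, was lower in Large White. It was at 5.39 and 4.58 against 7.77 and 6.81 in the diaphragm and at 4.40 and 4.36 against 5.35 and 5.41 in *Biceps femoris*, and its contrast was -1.61 (adjusted p = 1.39e-05). Its other probe differed in the same direction, by -0.61. ANKRD1, a titin-binding protein induced by muscle strain, was at 7.28 and 7.26 in the Large White *Biceps femoris* against 3.87 and 3.78 in the Iberian one, but at 3.0 and 3.50 against 4.07 and 3.38 in the diaphragm. Its contrast of 1.46 (adjusted p = 3.17e-09) thus came from *Biceps femoris*, though its difference between the muscles did not pass (adjusted p = 0.891). CASQ2 and ANKRD1 both had a mean level of 2.73 in the other tissues, near the lowest value on the arrays, 1.78. At such levels a breed difference in those tissues could hardly be seen.

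CMBL, a hydrolase, was higher in Iberian by 1 probe, at 4.40 and 4.42 against 6.47 and 6.83 in *Biceps femoris* and at 5.10 and 4.21 against 5.92 and 5.29 in the diaphragm, with a contrast of -1.44 (adjusted p = 0.000517). The breed difference in muscle was -1.59 by this probe and 0.18 by the other CMBL probe. SLC2A5, the fructose transporter, had a contrast of 1.84 (adjusted p = 0.013), but its breeds overlapped in *Biceps femoris*, at 5.68 and 4.88 against 4.05 and 6.15. PSAP, the precursor of lysosomal saposins, had a contrast of 1.36 (adjusted p = 0.00972) and did not pass without the deviant array (adjusted p = 0.096), on which it was at its lowest, 4.34. The breed difference in muscle was 1.28 by this PSAP probe and 0.14 by the other.

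The brightest slow and fast fibre genes differed little between breeds. No member of any of the 33 gene lists passed over 8 arrays. The slow myosin heavy chain MYH7 lay between 13.35 and 13.77 on all arrays and differed by -0.07 (SE 0.14), and its light chain MYL2 by -0.16 (SE 0.14). The fast genes TNNC2 and MYL1 differed by 0.17 (SE 0.14) and 0.03 (SE 0.15). These slow and fast genes, the brightest of their lists, lay at 13.09 or above on all muscle arrays, where the highest value of the series was 14.47. Whether their signal was near saturation was not tested. Over the 18 probes of the slow fibre list the median was -0.07 in the diaphragm and -0.11 in *Biceps femoris*, and over the 12 probes of the fast fibre list 0.21 and 0.03. Mean levels of the fast list in the diaphragm were 11.20 and 11.06 against 11.07 and 10.80, so the breeds overlapped. Of the developmental and cardiac sarcomere list, cardiac actin ACTC1 was lower in Large White, at 9.21 and 9.59 against 10.91 and 9.77 in the diaphragm and at 8.90 and 9.05 against 9.49 and 9.19 in *Biceps femoris*, a difference of -0.65 (SE 0.27). The sarcomere genes shared by all fibres had medians of -0.26 in the diaphragm and 0.25 in *Biceps femoris*. For calcium release and uptake they were -0.28 and -0.09. For the developmental and cardiac list they were -0.33 and -0.19, the latter -0.02 without the deviant array. At an unadjusted p under 0.05, 2 of 7 calcium and 2 of 8 developmental probes were lower in Large White, and 0 were higher. Without the deviant array 1 and 2 were lower. Over all probes and 8 arrays 3.84% were lower and 3.09% higher. The *Biceps femoris* medians of the fast fibre and calcium lists turned sign without the deviant array, to -0.02 and 0.18.

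Energy metabolism showed small differences as well. Glycolysis and glycogen genes, 34 probes, had medians of 0.17 in the diaphragm and 0.06 in *Biceps femoris*, with 8 probes apart upwards in both muscles and 1 downwards, where 3.86% and 5.7% of all probes were apart. PYGM, the glycogen phosphorylase of muscle, was at 13.21 and 13.09 against 12.74 and 12.87 in the diaphragm and differed by 0.22 (SE 0.14). The median of the 66 oxidative phosphorylation probes was 0.08 in the diaphragm and -0.15 in *Biceps femoris*, and NDUFA4 and ATP5E, of cytochrome oxidase and ATP synthase, differed by -0.11 and -0.08. COX7C, another cytochrome oxidase subunit, chosen after its values were seen, was at 12.25 and 12.22 against 11.56 and 11.59 in the diaphragm and at 11.93 and 11.80 against 11.03 and 11.09 in *Biceps femoris*. It differed by 0.73 (SE 0.14, adjusted p = 0.297) and was higher in Large White in all 14 other tissues. Citrate cycle genes had medians of 0.10 and 0.07, fatty acid oxidation genes 0.01 and -0.07, and mitochondrial biogenesis genes -0.05 and 0.18. All 3 medians in *Biceps femoris* turned sign without the deviant array, to -0.08, 0.05 and -0.13.

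**Figure D4:**
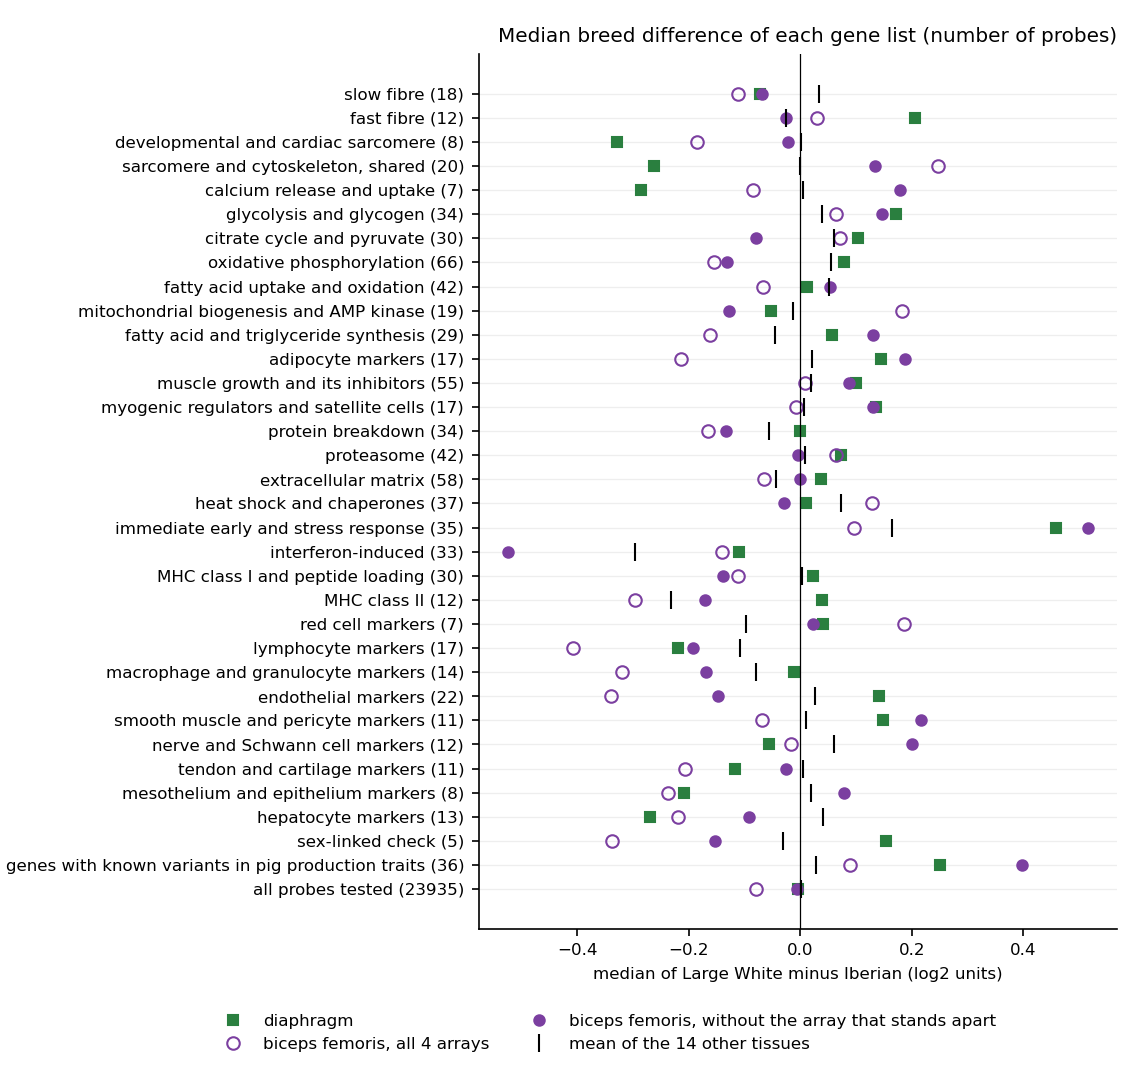
Median difference Large White minus Iberian in log2 units (x axis) over the probes of each gene list (y axis, number of probes in brackets), in the diaphragm (squares), in *Biceps femoris* with all 4 arrays (open circles) and without the deviant array (filled circles), and averaged over the 14 other tissues (bars). Most medians lie within 0.3 of 0, and the immediate early list at 0.46 and 0.52 and the interferon list at -0.52 are the ones farthest out.

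Among genes with known variants in pig production traits, IGF2, FABP4 and KIT were higher in Large White, none of them past the threshold. IGF2, an imprinted growth factor of muscle, was at 10.75 and 10.93 against 10.41 and 9.85 in the diaphragm by its brightest probe, and at 11.29 and 10.77 against 9.56 and 10.69 in *Biceps femoris*. Its difference was 0.81 (SE 0.29, adjusted p = 0.668) and 1.05 without the deviant array (adjusted p = 0.141), where the deviant array is the one at 10.69. Of 13 IGF2 probes, which share a transcript and are not independent, 11 were higher in Large White, with differences from -0.33 to 0.81. In the other tissues the brightest probe was higher in Large White in 8 of 14. FST, follistatin, which binds myostatin, was named after its values were seen and differed by 0.77 (SE 0.20), at 6.83 and 6.43 against 5.80 and 5.58 in the diaphragm.

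FABP4, the fatty acid binding protein of fat cells, was at 10.19 and 10.52 in the Large White diaphragm against 8.93 and 7.39 in the Iberian one, and at 9.76 and 10.20 against 9.19 and 9.75 in *Biceps femoris*. The difference was 1.35 (SE 0.46, adjusted p = 0.654), and in *Biceps femoris* the closest arrays of the breeds were 9.76 and 9.75. Over the 17 probes of the adipocyte list, 1 was higher in Large White and 0 lower at an unadjusted p under 0.05. Among all probes the shares were 3.09% and 3.84%. The median of the list was 0.15 in the diaphragm and -0.21 in *Biceps femoris*, or 0.19 there without the deviant array. Mean levels of the list ran from 6.15 to 6.46 in Large White and from 6.02 to 6.69 in Iberian. The part of fat cells in these values was not tested. KIT, the receptor whose duplication gives the white coat of Large White, was at 5.87 and 6.36 against 5.06 and 5.46 in the diaphragm and at 5.90 and 5.85 against 5.25 and 5.37 in *Biceps femoris*. It differed by 0.71 (SE 0.16, adjusted p = 0.419) and was higher in Large White in all 14 other tissues.

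By the brightest probe of each of the other production genes, the breeds were not apart in both muscles. RYR1, the calcium release channel whose variant causes malignant hyperthermia, differed by -0.03 (SE 0.22), and FABP3, the muscle fatty acid binding protein, by -0.03 (SE 0.19). Both turned sign without the deviant array, to 0.03 and 0.05. PRKAG3, the AMP kinase subunit tied to glycogen content, differed by 0.18 (SE 0.29), and by 0.50 (SE 0.18, adjusted p = 0.384) without the deviant array. CAST, calpastatin, the inhibitor of calpains, was at 8.61 to 9.55 on 7 arrays and at 5.07 on the deviant one, so that its difference was 0.87 (SE 0.82) with that array and -0.23 (SE 0.14) without it. A dimmer CAST probe differed by -0.79 and was the only production gene probe lower in Large White at an unadjusted p under 0.05. MSTN, myostatin, the inhibitor of muscle growth, was at 6.34 and 6.38 against 6.15 in *Biceps femoris* and at 3.56 on the deviant array, and at 6.18 and 4.20 against 4.44 and 4.63 in the diaphragm. Its difference fell from 1.07 (SE 0.49) to 0.59 (SE 0.35) without the deviant array. SCD, the desaturase that makes oleic acid, was highest on the deviant array, at 8.47 beside 4.92 to 6.55 on the others, and its difference of -0.82 was -0.17 without it. Differences of MYOD1, FUT1, PCK1, LEP, PHKG1, ESR1, LEPR and MC4R lay between -0.29 and 0.20, or between -0.22 and 0.33 without the deviant array, and the last 2 were at or below 2.97 on all 8 arrays. A dimmer MYOD1 probe, however, differed by 0.797, and by 1.185 without the deviant array. The dimmer LEP probe differed by -0.444.

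**Figure D5:**
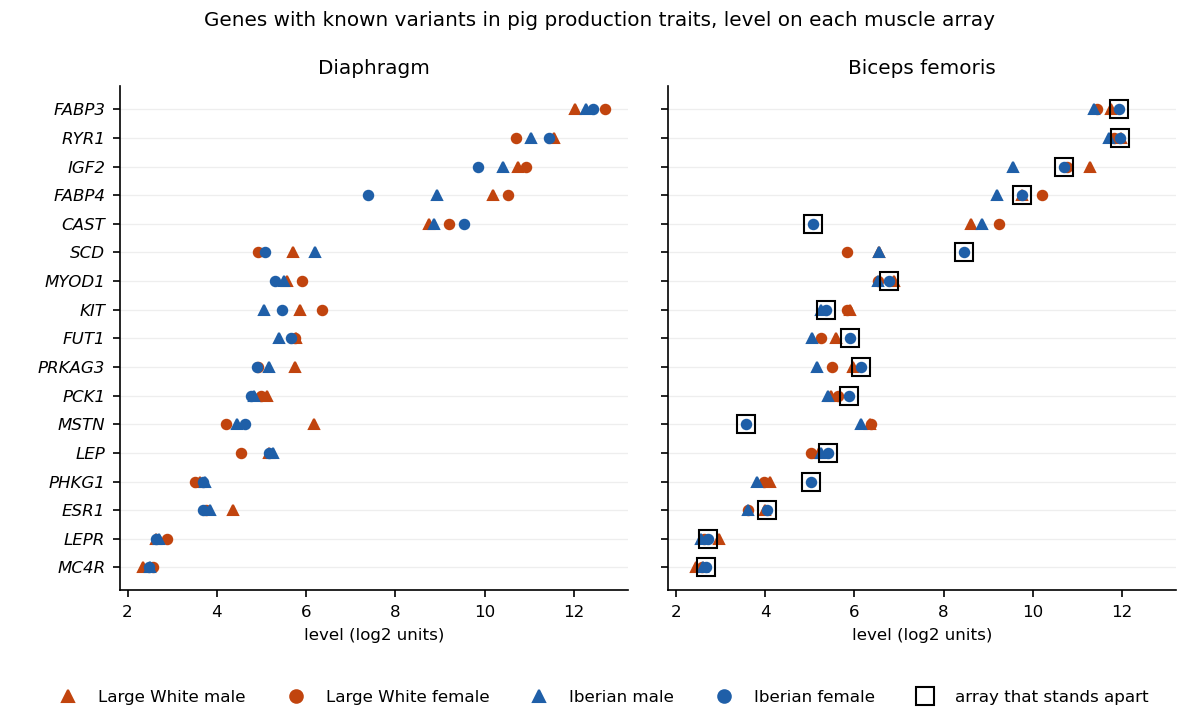
Level in log2 units (x axis) of the 17 genes with known variants in pig production traits, by their brightest probe, on the diaphragm and *Biceps femoris* arrays, with breed by colour, sex by symbol and the deviant array in a square. IGF2, FABP4 and KIT have both Large White points to the right in each muscle, and CAST, MSTN and SCD have the deviant array far from the other 3.

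No gene of the immune lists passed. Of the 33 probes of interferon-induced genes, 8 were lower in Large White and 1 higher at an unadjusted p under 0.05, where 3.84% of all probes were lower. Their median was -0.11 in the diaphragm, -0.14 in *Biceps femoris* and -0.52 there without the deviant array, and -0.30 in the other tissues. Mean levels of the list in the diaphragm were 6.20 and 6.56 against 6.75 and 6.30 and in *Biceps femoris* 5.88 and 5.86 against 6.37 and 5.69. The Iberian male was highest and the breeds overlapped in both muscles. GBP1, a guanylate binding protein, was at 8.43 and 8.61 against 9.08 and 8.82 in the diaphragm and at 7.72 and 7.48 against 8.51 and 7.66 in *Biceps femoris*, a difference of -0.46 (SE 0.19). IFI44L differed by 0.40 (SE 0.23), or 0.16 without the deviant array.

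B2M, the light chain of MHC class I, was at 11.95 and 12.14 against 12.85 and 12.76 in the diaphragm and at 12.21 and 12.22 against 12.77 and 13.13 in *Biceps femoris* by the brightest of its probes. The difference was -0.74 (SE 0.15, adjusted p = 0.321). Of 3 other B2M probes with a mean of at least 11.79, 1 differed by -0.51 and the others by -0.06 and -0.02, so the probes of this gene disagreed. Of the lymphocyte list 2 probes had a positive and 15 a negative difference, of the macrophage list 4 and 10 and of the endothelial list 7 and 15. Over all probes 10534 were positive and 13401 negative, and lists outside the immune system were as uneven, with 1 and 10 for tendon and cartilage and 2 and 11 for hepatocyte markers. The endothelial median was 0.14 in the diaphragm, and over both muscles it turned from -0.08 to 0.05 without the deviant array. Endothelial probes lower at an unadjusted p under 0.05 then went from 3 to 0, while over all probes they went from 918 to 1173. C1QC and C1QA, complement genes of macrophages, differed by -0.42 (SE 0.28) and -0.57 (SE 0.30), or -0.27 and -0.48 without the deviant array, with the breeds overlapping in the diaphragm.

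Over all probes the median difference was -0.04. For extracellular matrix it was -0.02, for the proteasome 0.08, for protein breakdown -0.07 and for heat shock genes and chaperones 0.07, or -0.04 without the deviant array. Myogenic regulators had 0.20, or 0.05 without the deviant array, and fatty acid synthesis genes -0.05, or 0.07 without it. Among markers of other cells and tissues, the medians were -0.31 for mesothelium and epithelium, -0.26 for hepatocytes, -0.17 for tendon and cartilage and 0.23 for red cells, and -0.16, -0.16, -0.04 and 0.07 without the deviant array. THBS1, a matrix glycoprotein, and DNAJB1, a chaperone partner of HSP70, both named after their values were seen, were the members of these lists with the largest differences upwards past an unadjusted p under 0.05. THBS1 was at 7.79 and 6.71 against 5.15 and 5.86 in the diaphragm and at 6.86 and 7.31 against 5.43 and 5.91 in *Biceps femoris* (difference 1.58, SE 0.30), while its 4 other probes differed by at most 0.18. DNAJB1 was at 8.60 and 7.01 against 6.33 and 6.35 and at 8.67 and 7.37 against 6.48 and 6.97 (difference 1.38, SE 0.35).

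Without the deviant array 42 probes passed in all, 16 of them with a symbol. All 42 had the same sign over 8 arrays, and for 36 the breeds were apart in both muscles. Higher in Large White were PTGES3, DDX39B, CKAP4, RPL38, FOLH1B, HTATIP2, FOS, NR4A3, CD59 and ABCC6, and higher in Iberian were ACAD8, THYN1, VPS26B, ZNF12, C3 and FAH. ABCC6, a membrane transporter, C3, the central complement protein, and FAH, which ends tyrosine breakdown, lie outside the rule for named genes. Their differences without the array were 1.28, -1.09 and -1.05 (adjusted p = 0.0223, 0.032 and 0.0447). Among the probes without a symbol, 2 related ones had the largest differences, -3.54 and -4.02 (both adjusted p = 0.00139). The study lists both under the same hypothetical protein, and they were lower in Large White in all 14 other tissues. On the deviant array both were near the Large White level, at 4.58 and 5.53. Probes listed by the study as DDX17, SSX2IP, DIDO1, KCMF1 and SEMA3A were higher in Large White, and the one listed as SYN3 was lower, each also with that sign in all 14 other tissues.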

How the data were processed

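Per the labels and the methods of the study, tissues were taken at necropsy, total RNA was hybridised to the Affymetrix porcine array, signals were made with GCOS, and the authors normalized all 64 arrays together by RMA in libaffy. Software versions were not given in the sources used here. Log2 intensities were deposited, between 1.78 and 14.47, so a batch or an array that stands apart enters the normalization of the others.

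Of 24123 probe sets, 188 controls were left out and 23935 tested. Gene names come from the platform annotation, which gives 1 symbol to 10110 tested probes, several to 157 and none to 13668. 9961 were matched to RefSeq gene tables by Entrez ID, and no symbol changed. For some probes the study gives another name, which is stated beside them.

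Arrays were grouped by the tissue and breed in their labels. limma 3.58.1 (R 4.3.3) was fitted to the 8 muscle arrays with muscle, sex and breed, and the animal as a random block. The consensus correlation within animals was -0.16 and was set to 0, so the reported fit equals one without the block. P-values were adjusted after Benjamini and Hochberg at 0.05. Both muscles of an animal thus count as separate arrays, and p-values measure the spread between these arrays. Replicate numbers join the male of one breed to the female of the other and so pair no animals.

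The breed difference in muscle minus that in the 14 other tissues was fitted to the 64 arrays with a mean per tissue and breed, and sex. The genes named are the 12 per direction with a symbol, the smallest p and no overlap between breeds in either muscle. The 33 gene lists are described by counts and medians. The comparison, genes and lists were chosen with earlier results of these data known. The fits were run on simulated data with and without variance between animals. A limit on false p-values under 0.05 was set only for the data without such variance. The run thus does not test the p-values for 2 animals per breed. Tables and plots were made with Python 3.11.15, pandas 2.3.3, numpy 2.4.6, scipy 1.17.1 and matplotlib 3.10.9. Alternatives were other models, weights, scales, filters and leaving out arrays or animals.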

Additional observations from a re-analysis of the deposited data

Results flagged for a closer look

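The *Biceps femoris* array of the Iberian female lay outside the other 3 of that muscle. The gap of its mean distance to the other arrays, divided by the whole range, was 0.857, above Dixon's critical value for 4 samples. On the same array the mean of the citrate cycle list, 8.91 beside 9.46 to 9.48, gave 0.963, and the mean of the heat shock list gave 0.893. In all 3 of 68 groups of 4 arrays were singled out so, and chance alone does this in about 1 in 20.

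Of the probes with a symbol, 82 passed upwards and 67 downwards in the contrast of muscle with the 14 other tissues over 64 arrays. The 6 genes with the largest contrasts among them were flagged. The contrast was 2.49 for ATF3, 1.84 for SLC2A5, -1.61 for CASQ2, 1.46 for ANKRD1, -1.44 for CMBL and 1.36 for PSAP. Without the deviant array all of these 6 but PSAP passed again.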

How the results depend on the processing

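Counts are given as higher in Large White and higher in Iberian. The muscle comparison gave 2 and 0 probes, and gave the same with no replicate block. It gave 0 and 0 on animal means and on the natural logarithm, 1 and 0 with no sex term, after a new quantile normalization or above the median level, 6 and 0 with a trended prior, 23 and 19 with array weights, 83 and 33 by the z-score of the methods, and 775 and 547 with the spread of all 64 arrays. Leaving out arrays or animals gave 0 to 41 and 0 to 19. Without the Iberian female's *Biceps femoris* array the counts were 23 and 19, and without the Iberian female 41 and 14. Within the diaphragm, 0 and 0 became 2 and 3 without the deviant array and 2 and 1 with array weights. Within *Biceps femoris*, 0 and 0 became 2 and 0 with no sex term and 5 and 1 without that array. The difference between the muscles stayed at 0. The contrast with other tissues, 223 and 169, became 65 and 45 without that array and 339 and 300 without pineal gland and blood. Of 522 values of the named genes under alternatives, 0 changed sign. These genes were chosen for no overlap between breeds in either muscle, which leaves little room for a change of sign. The 0 is thus a description and no test of stability. The median of 9 of 33 lists changed sign without the deviant array. The causes of these changes were not tested.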
